A study of Mus musculus with 4 samples.

Results

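The T cell receptor complex and its coreceptors were followed in mouse lung as 9 genes, Cd3d, Cd3e, Cd3g, Cd247, Cd4, Cd8a, Cd8b1, Lck and Zap70, out of 47729 genes listed in the count files. The 9 were given by name as the parts of one machine and were found through their GRCm38 gene symbols. They were chosen with earlier results of these data known. All 9 passed the expression filter, which left 18783 genes for testing. The treated group held 2 libraries from mice labelled Sugen-Hypoxic, that is, given low oxygen and Sugen, which blocks the receptors for VEGF, and the comparison group held 2 libraries from mice labelled Normoxic. All 4 libraries carried the same strain entry, BL/6, and the same genotype entry, Control (Rosa), so the KCNK3 mutation named in the series' design is not part of the comparison and was not analysed here. By the sex entries of the labels, each treated library came from 2 males, normoxic replicate 1 from 3 females, and normoxic replicate 2 from 1 female and 2 males. Those animals were read as having been pooled within each library. The sources used here give no ages, dose or length of treatment, no library had Sugen without hypoxia, and the sex of the pools differs between the groups.

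The T cell receptor recognises peptides held by MHC molecules. Its antigen-binding chains have almost no cytoplasmic part, and signals leave the complex through the CD3 delta, epsilon and gamma chains and the zeta chain, the products of Cd3d, Cd3e, Cd3g and Cd247, which carry tyrosine motifs. The coreceptors CD4 and CD8 bind MHC class II and class I and bring the kinase LCK to the receptor. LCK phosphorylates the tyrosine motifs, and the kinase ZAP-70 docks on them and passes the signal on. In the lung these genes mark T cells of the blood and tissue, and Cd247, Lck and Zap70 are also used by NK cells. In whole-tissue RNA, fewer T cells and less of a transcript per T cell cannot be told apart.

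Gene counts summed to 57319562 and 65343196 reads in the treated libraries and to 67135829 and 58224122 reads in the normoxic libraries. Levels are given as CPM, counts per 1000000 reads of the tested genes after scaling of library sizes by TMM factors. The genes of the complex were carried by 127 to 982 reads per library, and the lowest of these counts, Cd8a in treated replicate 1, has an exact Poisson 95% interval of 106 to 151 reads, which covers counting error only. The source label names lung and the extraction text names kidneys. The surfactant gene Sftpc stood at 12416 and 11403 CPM in treated and 11564 and 11254 CPM in normoxic libraries, and the kidney gene Umod at 0 and 0.124 CPM in treated and 0 CPM in both normoxic libraries. Of 14 kidney markers 4 had 0 reads in all 4 libraries, 4 were tested and 0 called, and their summed levels were 9.37 and 11.8 CPM in treated and 11.8 CPM in both normoxic libraries. The labels do not say that the pools of a group were raised or treated separately, and p-values measure only the spread between these 4 libraries.

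Of the 9 genes, 7 fell after Sugen and hypoxia, 0 rose and 2, Cd4 and Zap70, did not pass the test. Over all 18783 genes, 6.01% were called lower and 5.51% higher, at an adjusted p below 0.05. The 7 lower genes fell 1.79-fold to 2.6-fold, and the median log2 fold change of the 9 was -0.98, against -0.0039 over all genes tested. Both treated libraries lay below both normoxic libraries in 8 of the 9 genes, which was so for 31.7% of all genes tested. In Zap70 both treated libraries lay above both normoxic libraries, as in 30.0% of all genes tested. The calls needed both normoxic libraries, and most calls over all genes were also lost without either one. With the male share of the pools in the fit, 0 of the 9 genes passed. Over all genes that fit called 7 lower, against 1128 in the main fit. The 7 lower genes of the complex stayed lower in log2 fold change in each of these fits. Without either normoxic library this could hardly be otherwise, because both treated libraries lay below both normoxic libraries in each of the 7.

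**Figure D1:**
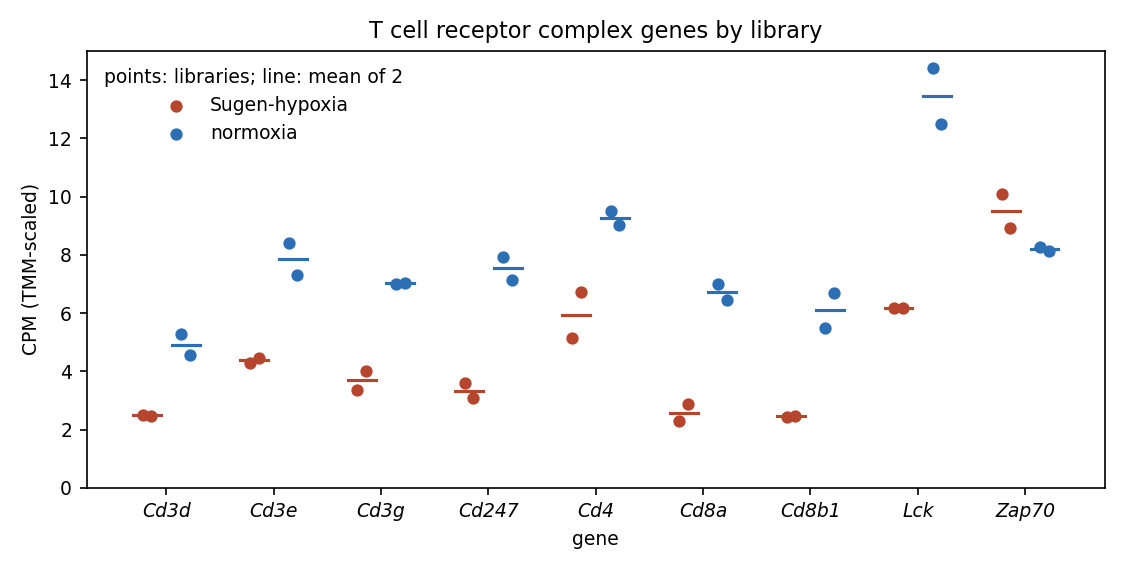
CPM (TMM-scaled) of the 9 genes, with 1 point per library, Sugen-hypoxia in red and normoxia in blue, and a line at the mean of the 2 libraries. The treated points lie below the normoxic points in 8 genes and above them in Zap70, where the treated libraries are at 10.1 and 8.91 CPM and the normoxic libraries at 8.27 and 8.14 CPM.

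The genes of the CD3 chains stand together on chromosome 9 (GRCm38). Cd3g (ENSMUSG00000002033, 44969572 to 44980431, minus strand) and Cd3d (ENSMUSG00000032094, 44981786 to 44987339, plus strand) point away from each other with 1354 bases between them, and Cd3e (ENSMUSG00000032093, 44998740 to 45009627, minus strand) follows 11400 bases beyond the end of Cd3d. The 300 bases around their starts, 250 before and 50 after, are shown because the 3 genes are neighbours and moved together, and they come from RefSeq on GRCm38.p6. Capitals mark matches on either strand to CAGNTG, the core bound by E proteins (N is any base), to CTTTGA, bound by TCF and LEF factors, and to TGTGGT, bound by RUNX factors. No base belongs to more than 1 marked match.
Cd3g promoter, chr9:44980382-44980681, minus strand: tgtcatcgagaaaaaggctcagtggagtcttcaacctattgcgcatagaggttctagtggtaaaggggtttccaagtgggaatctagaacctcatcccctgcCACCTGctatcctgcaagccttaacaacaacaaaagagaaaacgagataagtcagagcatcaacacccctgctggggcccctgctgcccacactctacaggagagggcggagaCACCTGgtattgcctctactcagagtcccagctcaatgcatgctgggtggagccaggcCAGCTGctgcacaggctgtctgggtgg
Cd3d promoter, chr9:44981536-44981835, plus strand: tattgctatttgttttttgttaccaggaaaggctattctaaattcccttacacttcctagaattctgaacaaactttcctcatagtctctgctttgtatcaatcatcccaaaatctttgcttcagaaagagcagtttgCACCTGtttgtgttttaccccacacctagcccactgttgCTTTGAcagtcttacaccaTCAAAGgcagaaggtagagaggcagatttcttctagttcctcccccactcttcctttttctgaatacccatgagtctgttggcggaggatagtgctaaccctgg
Cd3e promoter, chr9:45009562-45009861, minus strand: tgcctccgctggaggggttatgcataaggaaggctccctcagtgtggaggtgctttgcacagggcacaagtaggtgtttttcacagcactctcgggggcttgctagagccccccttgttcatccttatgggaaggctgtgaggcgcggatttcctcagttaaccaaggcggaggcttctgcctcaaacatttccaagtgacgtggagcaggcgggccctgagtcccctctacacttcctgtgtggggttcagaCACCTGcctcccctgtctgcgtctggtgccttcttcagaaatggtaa

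CAGNTG matched in 3 places in the Cd3g window, and in 1 place each in those of Cd3d and Cd3e. CTTTGA matched in 2 places in the Cd3d window, both before the start. Among 32851 windows of this length in the RefSeq table, 51.4% held CAGNTG, 16.0% held CTTTGA and 16.8% held TGTGGT. A match is a string of letters, and binding was not measured.

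Cd3d, the gene of CD3 delta, was at 2.51 and 2.48 CPM in the treated libraries and at 5.27 and 4.57 CPM in the normoxic libraries. The groups were separated by a gap wider than the spread within either. The log2 fold change was -0.98 ± 0.18 (SE; edgeR quasi-likelihood test, adjusted p = 0.0282). Cd3e, the gene of the epsilon chain, of which each receptor holds a copy beside delta and another beside gamma, was at 4.3 and 4.47 CPM in treated and 8.41 and 7.29 CPM in normoxic libraries. It had the smallest fall of the 7, a log2 fold change of -0.84 ± 0.15 (adjusted p = 0.0248). Cd3g, the gene of CD3 gamma, was at 3.37 and 4.02 CPM in treated and 6.99 and 7.04 CPM in normoxic libraries. Here the treated pair was the more spread of the 2, and the log2 fold change was -0.92 ± 0.16 (adjusted p = 0.0244).

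Cd247 (ENSMUSG00000005763, chromosome 1, 165788681 to 165877277, plus strand) encodes the zeta chain, which also serves NK cell receptors, and was at 3.59 and 3.07 CPM in treated and 7.94 and 7.14 CPM in normoxic libraries. The groups were far apart against the spread within each. The log2 fold change was -1.18 ± 0.16 (adjusted p = 0.0145), a 2.26-fold fall. The end of Cd247 overlaps Pou2f1 (165865154 to 166002678, minus strand), which encodes a widely expressed transcription factor. Its start overlaps Gm16565 on the same strand, which held 2 to 32 reads per library. The column for the opposite strand held 796 and 895 reads at Cd247 in treated and 1175 and 1011 in normoxic libraries, against 199 and 198 in treated and 543 and 428 in normoxic libraries in the column used here. Counts made without regard to strand were close to those used, at 192 and 188 in treated and 533 and 414 in normoxic libraries. With them the log2 fold change was -1.2. The other 8 genes held at most 18 reads per library in the opposite-strand column.

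The coreceptor genes differed in the size of their change. Cd8a (ENSMUSG00000053977, chromosome 6, 71373427 to 71379173, plus strand), the gene of CD8 alpha, was at 2.29 and 2.87 CPM in treated and 6.99 and 6.44 CPM in normoxic libraries. Its fall of 2.6-fold was the largest of the 9, with a log2 fold change of -1.38 ± 0.19 (adjusted p = 0.0134). Cd8b1 (ENSMUSG00000053044, 71322788 to 71337494, plus strand), the gene of CD8 beta, the partner of CD8 alpha on conventional cytotoxic T cells, ends 35932 bases before Cd8a begins. It was at 2.44 and 2.47 CPM in treated and 5.5 and 6.69 CPM in normoxic libraries, a log2 fold change of -1.31 ± 0.18 (adjusted p = 0.0146). Its normoxic libraries were the wider pair, with the mixed-sex pool above the all-female pool.

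Cd4 (ENSMUSG00000023274, chromosome 6, 124864692 to 124888221, minus strand), the coreceptor gene of helper and regulatory T cells, was at 5.13 and 6.74 CPM in treated and 9.49 and 9.01 CPM in normoxic libraries. The groups did not overlap, but the treated libraries were spread more widely than the normoxic ones. Its log2 fold change of -0.64 ± 0.17 did not pass (adjusted p = 0.0647). It did pass with DESeq2 (adjusted p = 0.019) and with no expression filter (adjusted p = 0.0151), and over the 10 alternative settings on 4 libraries without a covariate its adjusted p ran from 0.0151 to 0.0655. The value depended on the treated library: it was -0.46 with treated replicate 1 left out and -0.85 with treated replicate 2 left out.

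Of the kinase genes, Lck fell and Zap70 was not called. Lck (ENSMUSG00000000409, chromosome 4, 129548344 to 129573641, minus strand), which codes for the kinase that starts the signal, was at 6.19 and 6.18 CPM in treated and 14.4 and 12.5 CPM in normoxic libraries. It had the lowest adjusted p of the 9, 0.0078, with a log2 fold change of -1.12 ± 0.12. Zap70 (ENSMUSG00000026117, chromosome 1, 36761798 to 36782818, plus strand), which codes for the kinase that acts on the phosphorylated chains, was at 10.1 and 8.91 CPM in treated and 8.27 and 8.14 CPM in normoxic libraries. Its log2 fold change of 0.21 ± 0.12 did not pass (adjusted p = 0.292), and it was positive in all 15 alternative settings, between 0.12 and 0.3. These settings reuse the same 4 libraries. With both treated libraries above both normoxic ones, leaving out 1 library could hardly turn the sign. The gene overlaps only Gm18828, a pseudogene on the opposite strand with 0 reads in all 4 libraries, and its own opposite-strand count was 6 to 12 reads per library. In RefSeq, Zap70 has 3 annotated starts and Lck has 2, and counts per gene do not say which were in use.

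**Figure D2:**
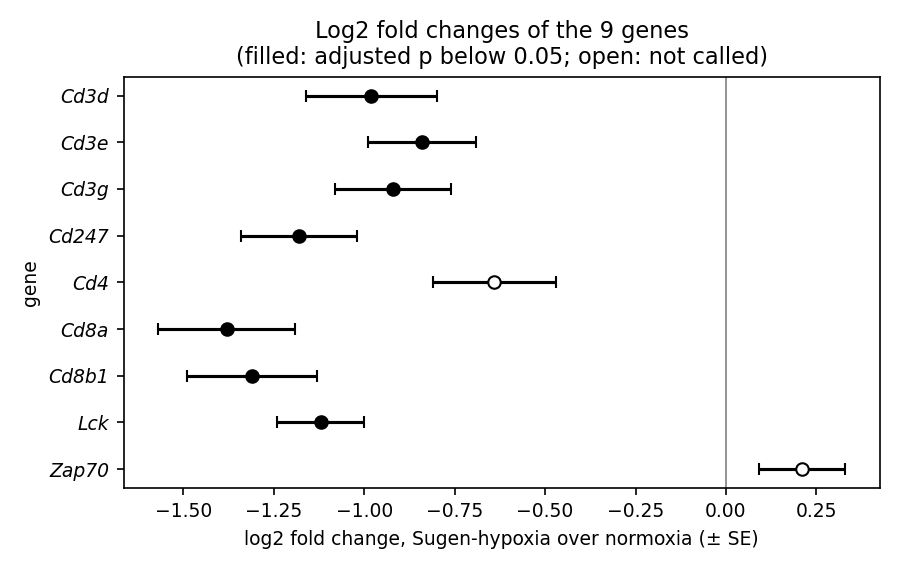
Log2 fold changes of Sugen-hypoxia over normoxia with standard errors from edgeR for the 9 genes, where filled points have an adjusted p below 0.05. Cd8a is the lowest at -1.38, Cd4 is open at -0.64 and Zap70 is open at 0.21, on the other side of 0.

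The windows at the first annotated starts of the kinase genes are shown because Lck was called lower and Zap70 was not, with the same marks as above.
Lck promoter, chr4:129573592-129573891, minus strand: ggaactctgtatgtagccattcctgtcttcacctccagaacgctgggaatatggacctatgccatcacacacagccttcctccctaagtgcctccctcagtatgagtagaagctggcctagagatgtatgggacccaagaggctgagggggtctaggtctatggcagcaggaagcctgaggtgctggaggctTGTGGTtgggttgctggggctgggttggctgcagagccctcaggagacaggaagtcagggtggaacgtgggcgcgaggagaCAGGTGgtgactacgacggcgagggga
Zap70 promoter, chr1:36761548-36761847, plus strand: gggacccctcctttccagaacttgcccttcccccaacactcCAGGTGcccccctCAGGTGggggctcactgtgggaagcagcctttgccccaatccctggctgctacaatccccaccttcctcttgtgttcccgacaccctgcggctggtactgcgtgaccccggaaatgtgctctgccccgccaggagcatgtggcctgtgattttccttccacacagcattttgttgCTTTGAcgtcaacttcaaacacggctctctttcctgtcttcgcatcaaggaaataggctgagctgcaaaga

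The Lck window held CAGNTG and TGTGGT in 1 place each, of which CAGNTG lay after the start. The Zap70 window held CAGNTG in 2 places and CTTTGA in 1 place, all before the start. Of the 9 genes, 7 had windows in the table, 10 windows in all with the further starts of Lck and Zap70. Of the 10, 9 held CAGNTG, 3 held CTTTGA and 2 held TGTGGT. The shares over all windows were 51.4%, 16.0% and 16.8%. Windows of the same gene are not separate cases, and no test was made.

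Ratios of reads between genes of the complex do not depend on library scaling. Zap70 over Lck was 1.63 and 1.44 in treated and 0.575 and 0.651 in normoxic libraries, a difference of 1.32 on the log2 scale. Zap70 over Cd3e was 2.34 and 1.99 in treated and 0.983 and 1.12 in normoxic libraries, a difference of 1.05. With 2 libraries against 2 an exact permutation test cannot go below p = 0.33 (two-sided), which is the p of both ratios and of every ratio named here whose groups do not overlap. Cd4 over Cd8a was 2.24 and 2.35 in treated and 1.36 and 1.4 in normoxic libraries, a difference of 0.73, with the groups well apart. Relative to Cd3e, Cd8a was at 0.588 ± 0.0769 in treated and 0.857 ± 0.0368 in normoxic libraries (SD, n = 2 each), without overlap. Cd4 relative to Cd3e overlapped, at 1.35 ± 0.222 in treated and 1.18 ± 0.0757 in normoxic libraries (exact permutation p = 0.667). Ratios among the signalling chains were closer between the groups: Cd3g over Cd3e overlapped, Cd3d over Cd3e differed by -0.14, and Cd247 over Cd3e by -0.34. Lck over Cd3e differed by -0.28, and like Cd3d and Cd247 over Cd3e it was lower in both treated libraries. Cd3e had the smallest fall of the called genes, so ratios of the other called genes over it tend to be lower in treated libraries. The alpha and beta genes of CD8 kept overlapping ratios, with Cd8b1 over Cd8a at 1.06 and 0.859 in treated and 0.787 and 1.04 in normoxic libraries.

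**Figure D3:**
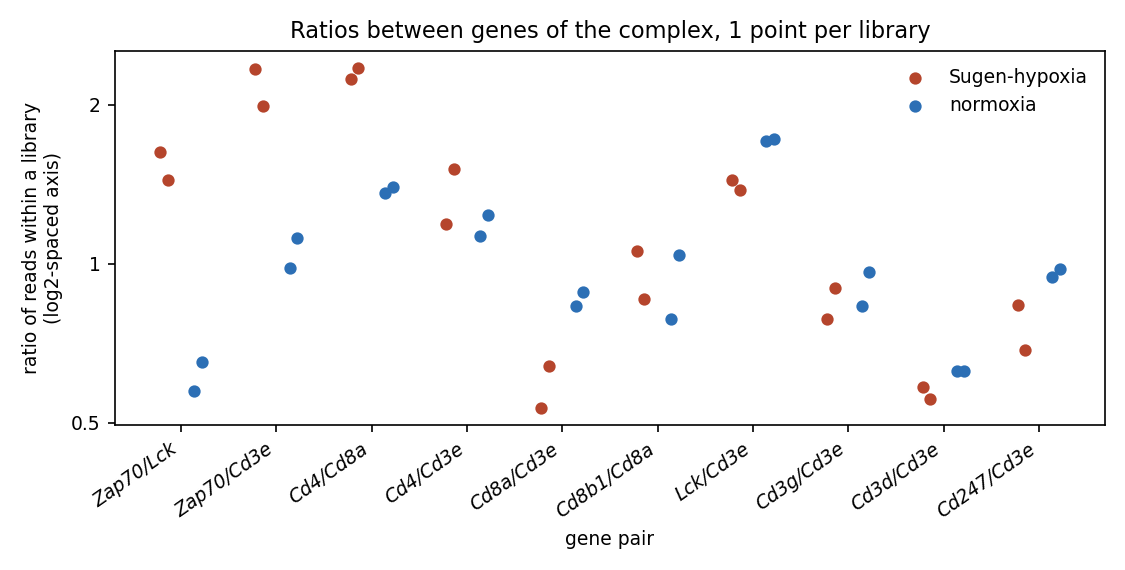
Ratios of reads between pairs of genes within each library, on a log2-spaced axis, with Sugen-hypoxia in red left of normoxia in blue. Zap70 over Lck, Zap70 over Cd3e and Cd4 over Cd8a are higher in both treated libraries. Cd8a, Lck, Cd3d and Cd247 over Cd3e are lower in both. Cd8b1 over Cd8a, Cd4 over Cd3e and Cd3g over Cd3e overlap.

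Levels between genes were compared per exon length, as TPM (counts divided by the length of the union of annotated exons, scaled to 1000000 per library). In treated libraries Zap70 was the highest of the 9 at 10.4 ± 0.687 TPM, above Lck at 6.92 ± 0.132 and Cd8b1 at 5.42 ± 0.16 TPM (SD, n = 2). In normoxic libraries Lck was the highest at 15.5 ± 1.27 TPM and overlapped Cd8b1 at 13.9 ± 2.13, while Zap70 came next at 9.25 ± 0.0472 and overlapped Cd3d at 9.14 ± 0.77 TPM. Cd247 was the lowest in either group, at 2.05 ± 0.183 TPM in treated and 4.77 ± 0.284 TPM in normoxic libraries. In the treated order, Cd8b1 and Cd4, Cd4 and Cd3d, Cd3g and Cd3e, and Cd8a and Cd247 overlapped as neighbours. In the normoxic order, Cd3e and Cd8a also overlapped. A union of exons includes long untranslated ends and rarely used exons, so these levels rank genes only roughly.

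The antigen-binding chains of the receptor are read through their constant-region genes. Of 7 constant-region genes found, 3 were called lower and 4 were not called, with a median log2 fold change of -1.04. With no expression filter 5 were called lower, as were 1882 of all genes, against 1128 in the main fit. These calls needed both normoxic libraries, as did most calls over all genes. The alpha-chain gene Trac was at 3.5 and 3.94 CPM in treated and 7.77 and 7.54 CPM in normoxic libraries, a log2 fold change of -1.04 ± 0.15 (adjusted p = 0.0152). The beta-chain genes Trbc1 and Trbc2 fell by 1.41 and 0.87 on the log2 scale. They are near-identical copies, and reads that map to several places are set apart in the files, so their split is uncertain. The delta-chain gene Trdc, which marks gamma-delta T cells, was at 1.43 and 2.25 CPM in treated and 1.98 and 1.84 CPM in normoxic libraries, where the groups overlap. Its log2 fold change of -0.05 changed sign in 3 alternatives, and that of the gamma-chain gene Tcrg-C1, -0.33, in 1. The gamma-chain genes Tcrg-C2 and Tcrg-C4 had log2 fold changes of -1.13 ± 0.36 and -1.2 ± 0.31, with both treated libraries below both normoxic libraries, and did not pass (adjusted p = 0.105 and 0.065). Of 8 tested genes used by gamma-delta and innate T cells, 1 was lower, Blk at -1.12, a kinase gene that B cells share, and 1 was higher, Maf at 0.32, a transcription factor gene that many cell types express. The others named by rule, Sox13 and Zbtb16, had log2 fold changes of 0.21 and -1.0 and were not called. Over all genes tested, 6.01% were called lower and 5.51% higher.

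Of 30 genes that act just behind the receptor, 12 were called lower, 0 higher and 18 were not called. Txk, a kinase of the Tec family, was at 1.1 CPM in both treated libraries and at 3.89 and 3.12 CPM in normoxic libraries, and fell by 1.67 ± 0.24 on the log2 scale. Rhoh, a small GTPase needed for ZAP-70 to reach the receptor, was at 3.7 and 4.33 CPM in treated and 8.82 and 8.71 CPM in normoxic libraries, a log2 fold change of -1.12 (adjusted p = 0.0122). Sla2, an adaptor that lowers receptor signalling, fell by 1.06, and its adjusted p of 0.0448 became 0.0587 with unstranded counts. Plcg1 and Csk, which stood above 100 CPM in all 4 libraries and are used by many cell types, had log2 fold changes of 0.22 and -0.04 and were not called. Ptprc, the gene of the phosphatase CD45 that activates LCK and that all white blood cells carry, was at 124 and 157 CPM in treated and 240 and 236 CPM in normoxic libraries, a log2 fold change of -0.76 ± 0.12 (adjusted p = 0.0185). Relative to Ptprc, Cd3e overlapped between the groups, at 0.0315 ± 0.00434 in treated and 0.033 ± 0.00298 in normoxic libraries, and Cd3d overlapped too. Cd8a was lower relative to Ptprc, at 0.0184 and 0.0182 in treated and 0.0292 and 0.0273 in normoxic libraries. Cd8b1, Cd247, Lck and Cd3g were also lower relative to Ptprc in both treated libraries, by 0.54, 0.41, 0.35 and 0.16 on the log2 scale. Zap70 was higher relative to Ptprc, at 0.081 and 0.0566 in treated and 0.0345 in both normoxic libraries. Cd4 over Ptprc was higher in both treated libraries, by 0.11 on the log2 scale.

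Among 21 costimulatory and inhibitory receptors, 6 were called lower, 0 higher and 15 were not called. Il2rb, a shared chain of interleukin receptors on cytotoxic T and NK cells, was at 8.92 and 8.94 CPM in treated and 22.6 and 23.1 CPM in normoxic libraries and fell by 1.35 on the log2 scale. Btla, an inhibitory receptor of T and B cells, fell by 1.31, and Cd5, an inhibitory receptor of T cells, by 1.14. Il7r, a cytokine receptor gene, was at 19.3 and 25 CPM in treated and 27.9 and 22.8 CPM in normoxic libraries, which overlap. Cd2, an adhesion receptor gene, was at 18 and 23 CPM in treated and 25.4 and 22.9 CPM in normoxic libraries, which also overlap. Of 15 transcription factor genes, 7 were lower and 8 were not called. Tbx21 and Eomes, which direct cytotoxic and type I helper programmes in T and NK cells, fell by 1.82 and 1.69 (Eomes is also among the NK cell markers), Bcl11b, a factor of T cell identity, by 0.98 and Ikzf3 by 0.91. Ets1 and Zbtb7b, each at 0.12, were not called. Of 12 homing genes, 7 were lower and 5 were not called: Cxcr3, a chemokine receptor of effector T cells, fell by 1.63, the lymph node homing gene Ccr7 by 1.19, and the early activation and residence gene Cd69 by 1.12. S1pr1, also an endothelial gene, had a log2 fold change of 0.04, against -0.02 under upper-quartile scaling and -0.03 under library size alone, and was not called, and Klf2 at 0.41 was not called.

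**Figure D4:**
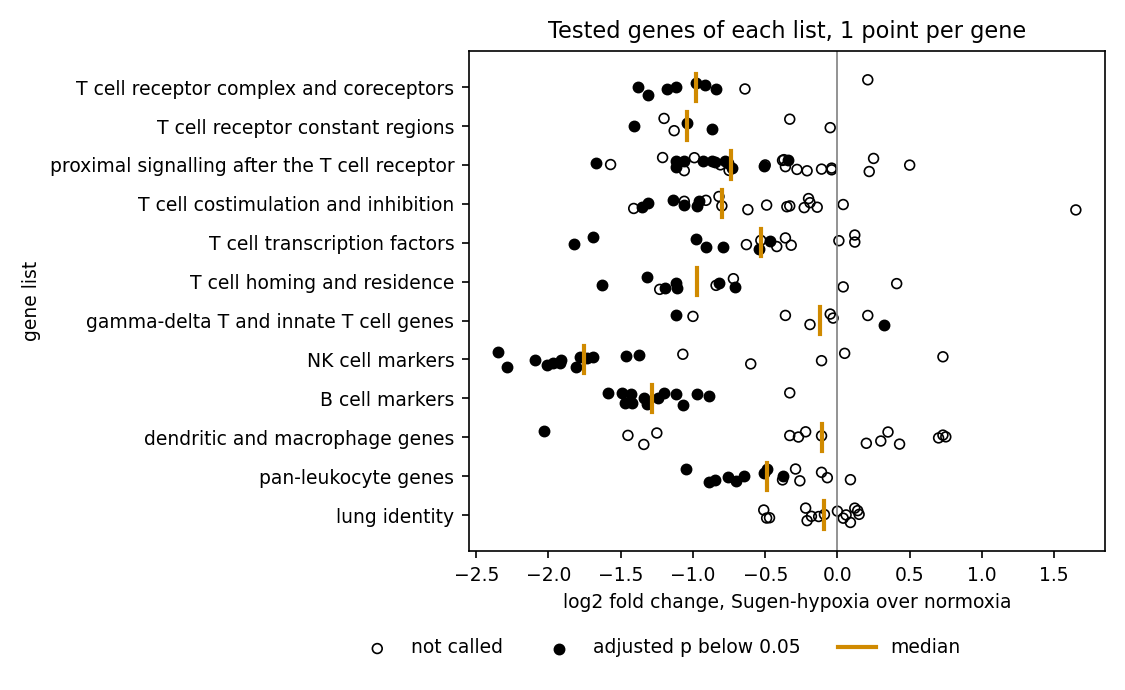
Log2 fold changes of Sugen-hypoxia over normoxia for the tested genes of 12 lists, with 1 point per gene, filled where the adjusted p is below 0.05, and an orange line at the median. The medians are -0.98 for the complex, -1.76 for NK cell markers, -1.28 for B cell markers, -0.11 for dendritic and macrophage genes and -0.09 for lung identity genes.

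Markers of other lymphocytes moved along with the complex. NK cells share Cd247, Lck and Zap70 with T cells. Of 18 NK cell markers 13 were called lower and 0 higher, with a median of -1.76 and summed levels of 174 and 236 CPM in treated and 264 and 241 CPM in normoxic libraries. The 3 markers with the highest levels, Tyrobp, Fcer1g and Fcgr3, which myeloid cells share, had log2 fold changes of -0.11, 0.05 and 0.73 and were not called. Fcgr3 was at 50.9 and 79.9 CPM in treated and 40.8 and 38.1 CPM in normoxic libraries, and these 3 genes make up most of the summed level. The NK receptor gene Ncr1 was at 0.884 and 0.978 CPM in treated and 4.68 and 3.27 CPM in normoxic libraries, and Klrb1c at 1.35 and 1.04 CPM in treated and 4.87 and 4.2 CPM in normoxic libraries. Both were picked out as defining markers after their values were seen, as were Rag1, Umod and the lymph node and gamma-chain genes named beside their lists. Of 14 B cell markers 13 were called lower, with summed levels of 189 and 221 CPM in treated and 474 and 444 CPM in normoxic libraries. The median of the pan-leukocyte list was -0.49, with 9 of 15 lower and summed levels of 1308 and 1616 CPM in treated and 1861 and 1823 CPM in normoxic libraries. That of the dendritic and macrophage list was -0.11, with 1 of 15 lower, against 6.01% of all genes tested. Its summed levels were 6718 and 7351 CPM in treated and 5692 and 5365 CPM in normoxic libraries. Its genes went both ways: Siglech was called lower at -2.03, and Xcr1, Ccr9 and Clec9a, not called, were at -1.45, -1.34 and -1.25. Itgax, Mrc1, Cd68 and Adgre1 were at 0.75, 0.73, 0.7 and 0.43 and were not called. Both treated libraries lay below both normoxic libraries in 5 of the 15, against 31.7% of all genes tested. They lay above both in Zbtb46, Itgax, Cd68, Adgre1, Mrc1 and Lyz2, against 30.0% of all genes tested. Lyz2 made up most of the summed level, at 6119 and 6443 CPM in treated and 5078 and 4795 CPM in normoxic libraries. The part of NK cells in the values of Cd247, Lck and Zap70 was not tested. Of 12 thymus markers 4 were tested and 0 called, with summed levels of 14.7 and 16.8 CPM in treated and 19.4 and 20.8 CPM in normoxic libraries. Ptcra, Foxn1 and Psmb11, which define thymus, had 0 reads in all 4 libraries, and Rag1 was at 0.0361 and 0.0311 CPM in treated and 0.0878 and 0.133 CPM in normoxic libraries. Of 10 lymph node stroma markers 8 were tested and 3 called lower, with summed levels of 221 and 354 CPM in treated and 328 and 316 CPM in normoxic libraries. The 3 called are Cr2, Fcer2a and Tnfrsf13c, which B cells express, and Cr2 and Fcer2a are also counted among the B cell markers. Chst4, which modifies ligands on lymph node vessels, was at 10.1 and 7.76 CPM in treated and 11.9 and 13.9 CPM in normoxic libraries and was not called. The chemokine gene Cxcl13 was at 2.73 and 11.9 CPM in treated and 8.88 and 7.89 CPM in normoxic libraries, and Ccl19 was below 1 CPM in all 4. The lymph node vessel genes Glycam1 and Madcam1 were at or near 0, with at most 0.0621 CPM in any library.

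Among 13367 protein-coding genes on autosomes whose mean reached 1 CPM, the 8 whose centred log2 levels over the 4 libraries lay closest to the mean profile of the complex were Dlec1, Sla2, Cfap69, Ngef, Il10ra, Lat, Rap1gap2 and Ccdc162, at root mean square distances of 0.0148 to 0.0347 on the log2 scale. The mean profile was -0.44 and -0.38 in treated and 0.45 and 0.37 in normoxic libraries. Lat, the membrane adaptor that ZAP-70 phosphorylates, was at 4.24 and 4.35 CPM in treated and 8.24 and 8.13 CPM in normoxic libraries. Il10ra, an interleukin receptor chain of white blood cells, was at 23.7 and 25.1 CPM in treated and 44.5 and 43.6 CPM in normoxic libraries. Cfap69, a gene of cilia and flagella, had a profile as close, at 12.4 and 12.9 CPM in treated and 22.9 and 22.5 CPM in normoxic libraries. All 8 were called lower, and with 4 libraries in 2 groups closeness mostly measures a fall of similar size.

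The fits with 1 library left out differed by group. Calls of the 9 genes were lost without either normoxic library and were kept without either treated library, and calls over all genes moved the same way. The treated libraries differed more from each other than the normoxic ones (chi-square of counts per degree of freedom 61.4 against 12.9). The part of this difference in the calls was not tested. Without normoxic replicate 1 the log2 fold changes of the 7 lower genes were between -0.73 and -1.44 and without normoxic replicate 2 between -0.92 and -1.44, each from a fit with 1 residual degree of freedom in which the lone library is assumed to vary like the other pair. Normoxic replicate 2, the mixed-sex pool, lay below normoxic replicate 1, the all-female pool, in 7 of the 9 genes. It lay between replicate 1 and the mean of the all-male treated pools in 6, which are the 7 without Zap70. This follows from the first count, because both treated libraries lay below both normoxic libraries in those 6. The share of all genes with this order was not counted. When the labelled share of males in each pool entered the fit, with 1 residual degree of freedom left, 0 of the 9 were called, with log2 fold changes of -1.59 to -0.63 for the 7 genes and adjusted p of 0.364 to 0.613. Over all genes, 7 were called lower in that fit, against 1128 in the main fit. Treatment and sex of the pools cannot be told apart beyond this.

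**Figure D5:**
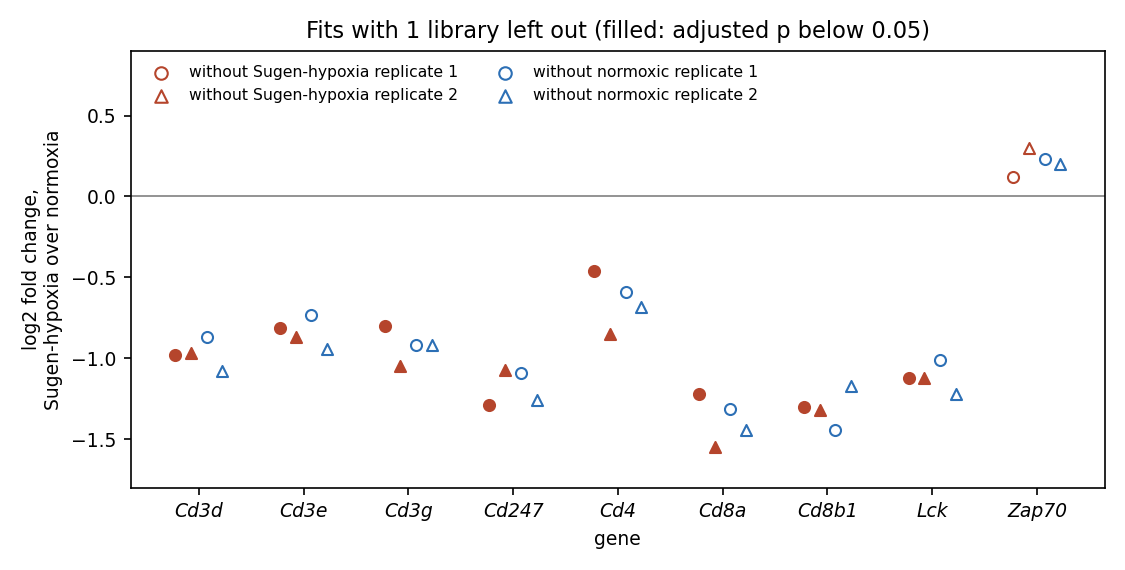
Log2 fold changes of the 9 genes in fits with 1 library left out, filled where the adjusted p is below 0.05, red for fits without a Sugen-hypoxia library and blue for fits without a normoxic library. Filled points occur only in the fits without a treated library, and calls over all genes moved the same way, while Cd4 moves between -0.46 and -0.85.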

How the data were processed

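Each library has 1 deposited file of the authors' raw gene counts, with separate columns for reads without regard to strand and for each strand. The submitters' processing notes name STAR 2.5.1b, HTSeq and GRCm38.p4. Neither the gene annotation nor the strandedness of the kit is stated in the sources used here. Column 4, for reads antisense to read 1, held 20.9 to 24.9 times the reads of the sense column and was used. Of 47729 genes, 47310 matched GENCODE mouse release 21, the source of symbols, coordinates and exon lengths. Unmapped (6.45 to 7.55%), multimapping (4.5 to 4.54%), no-feature (7.73 to 9.98%) and ambiguous reads (1.1 to 1.13%) were left out of library sizes.

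Groups came from the treatment entry of the labels. Genes passing filterByExpr were tested with edgeR 4.0.16 (R 4.3.3), using TMM factors, glmQLFit and glmQLFTest, and Benjamini-Hochberg adjustment over all 18783 genes at 0.05. Standard errors were derived from the fold change and its F statistic. The script was tested on simulated data. DESeq2 1.42.0, limma 3.58.1 and the other settings were alternatives. Replicate libraries differed by more than counting noise in either group.

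The 9 genes and the lists were chosen with earlier results of these data known. Named genes of T cell lists were up to 4 called genes with the largest change and up to 2 uncalled genes with the highest mean, all with a mean of at least 1 CPM. A few genes that this rule names are not reported here. Lists of other cells are given mainly as counts. Profile likeness used log2(CPM + 0.5). Promoter windows are RefSeq's.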

Additional observations from a re-analysis of the deposited data

How the results depend on the processing

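The 7 lower genes of the complex were called in all 10 alternatives that kept 4 libraries and had no covariate. With no expression filter 1775 genes were higher and 1882 lower, and with the male fraction as covariate 4 were higher, 7 lower and 0 of the complex were called. Leaving out 1 library gave 17 to 2663 higher genes, 8 to 2454 lower genes and 0 to 8 of the complex. DESeq2 called 1532 higher and 1508 lower, library size alone 765 and 1584, and upper-quartile factors 799 and 1424, against 1035 and 1128. Signs turned for Trdc, at 0.06 with the covariate, 0.01 without normoxic replicate 1 and 0.24 without Sugen-hypoxia replicate 1 (lowest with 1 library left out -0.42), and for Tcrg-C1 at 0.06 without Sugen-hypoxia replicate 1 (lowest -0.87). They turned for Csk at 0.02 and Il7r at 0.1 with the covariate. S1pr1 was at -0.02 with upper-quartile factors, -0.03 with library size alone, -0.05 without normoxic replicate 2 and -0.08 without Sugen-hypoxia replicate 1, with a highest value of 0.14 with 1 library left out. None of these values had an adjusted p below 0.05, but Il7r was called lower without Sugen-hypoxia replicate 2, at -0.39 (adjusted p = 0.0187). The cause was not tested. No paired analysis was possible because the labels give no replicate numbers that the groups share. With 2 pools a group, sex and treatment cannot be told apart.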
